A study of Mus musculus with 8 samples.

Results

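Small leucine-rich proteoglycans are secreted matrix proteins built around a run of leucine-rich repeats. The 10 genes described here are Bgn, Dcn, Aspn, Lum, Fmod, Prelp, Omd, Kera, Ogn and Epyc. Their members on the array were every probe set annotated to exactly 1 of these genes, which gave 21 of 45037 probe sets (control probe sets left out). Each gene had at least 1, so all 10 are among the 18193 genes measured. Other genes of the family are given further below. RNA was compared between the ductus arteriosus, a fetal shunt from the pulmonary trunk that shuts after birth, and the aorta. Both tissues came from untreated fetal mice at gestation day 19, whose strain is labelled CD88 and which are described as wild type. Each tissue had 4 arrays, labelled as biological replicates, and an array held the pooled vessels of up to 10 pups of 1 pregnant female. A pool is therefore a litter, and single pups, their sex and the layers of the vessel wall were not separated.

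The core of these proteins is a curved solenoid that binds collagen. Decorin and biglycan carry chondroitin or dermatan sulfate chains, lumican, fibromodulin, keratocan and osteomodulin can carry keratan sulfate, and asporin has a stretch of aspartate in place of a chain. Bound along the fibril, members of the family limit its thickness and spacing, and several also bind TGF-beta or other growth factors. In arteries decorin and lumican lie mainly in the adventitia, while biglycan is found through the wall.

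Of the 10 genes, Epyc, Aspn and Ogn rose in ductus pools and 0 genes were called towards the aorta (limma, Benjamini-Hochberg adjusted p under 0.05 over 18193 genes). Of all genes tested, 1.80% were called higher in the ductus and 2.06% higher in the aorta. Epyc rose 3.54-fold, Aspn 1.87-fold and Ogn 1.55-fold. The count of 3 fell to 1, Epyc, without aorta replicate 1 or ductus replicate 1. Dcn and Bgn, the members best known from the artery wall, did not pass, nor did Lum, Fmod, Prelp, Omd and Kera. The median log2 difference over the 10 genes, ductus minus aorta, was 0.15, against -0.03 over all genes. In bulk tissue, a change in the number of cells of a type and a change in RNA per cell cannot be told apart.

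The genes lie in groups on the chromosomes. In the RefSeq gene table (GRCm38.p6), Dcn, Lum, Kera and Epyc follow one another on chromosome 10, Aspn, Omd and Ogn on chromosome 13, and Prelp and Fmod on chromosome 1, while Bgn stands alone on chromosome X. The 3 called genes did not form a whole group. Aspn and Ogn stand on either side of Omd, and Epyc is at the end of its row next to Kera. RefSeq promoter sequences were at hand for 8 of the 10 genes. Those of the 3 called genes and of Omd, which lies between Aspn and Ogn and was not called, are shown so that the neighbours can be compared. Each is the 250 bases before the annotated start (GRCm38.p6), written 5′ to 3′ on the gene's strand, with letters matching TATAAA on either strand in capitals.
Aspn promoter, chr13:49544193-49544442, + strand: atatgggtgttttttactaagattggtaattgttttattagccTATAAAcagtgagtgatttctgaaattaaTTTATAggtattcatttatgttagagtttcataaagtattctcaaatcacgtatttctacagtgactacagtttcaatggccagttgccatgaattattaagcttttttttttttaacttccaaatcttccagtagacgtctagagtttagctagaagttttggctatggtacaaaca
Omd promoter, chr13:49582212-49582461, + strand: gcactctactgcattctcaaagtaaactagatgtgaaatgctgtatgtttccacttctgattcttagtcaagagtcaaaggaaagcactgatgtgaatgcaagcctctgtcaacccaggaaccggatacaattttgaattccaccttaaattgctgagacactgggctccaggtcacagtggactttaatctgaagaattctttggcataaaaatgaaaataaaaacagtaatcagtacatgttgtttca
Ogn promoter, chr13:49607765-49608014, + strand: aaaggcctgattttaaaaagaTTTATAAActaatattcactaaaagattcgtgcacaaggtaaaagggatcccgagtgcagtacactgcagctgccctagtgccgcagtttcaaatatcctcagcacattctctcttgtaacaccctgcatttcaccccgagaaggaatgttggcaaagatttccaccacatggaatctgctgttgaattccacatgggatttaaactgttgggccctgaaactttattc
Epyc promoter, chr10:97643818-97644067, + strand: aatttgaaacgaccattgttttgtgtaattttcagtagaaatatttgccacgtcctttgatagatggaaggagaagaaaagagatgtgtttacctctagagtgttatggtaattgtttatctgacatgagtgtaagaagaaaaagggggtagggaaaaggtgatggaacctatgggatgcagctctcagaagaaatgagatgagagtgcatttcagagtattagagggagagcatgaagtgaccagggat

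TATAAA was found in the Aspn and Ogn sequences and in neither the Omd nor the Epyc sequence shown. Over all 32851 promoter sequences of this length, 12.4% hold these letters on at least 1 strand. The 2 Ogn matches overlap each other, from -229 to -224 and from -227 to -222 relative to the start, and the Aspn matches lie from -207 to -202 and from -178 to -173. The letters GCCNNNGGC, the core bound by AP-2 factors, were in 0 of the 9 promoter entries of these genes and in 13.7% of all promoters. The homeodomain core TAATTA was also in 0 of 9, and in 4.84% of all. The SOX core ACAAAG was in 2 of 9, upstream of Kera and of a second annotated start of Epyc, and in 16.5% of all. These matches describe letters only, and GC content ran from 30.0% for Aspn to 64.4% for Bgn.

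Markers of the vessel wall were measured at high levels in both tissues, and some of them differed in level between them. The smooth muscle actin Acta2 was at 12.35 ± 0.048 in ductus pools and 12.14 ± 0.218 in aorta pools, and was not called (limma adjusted p = 0.464). It does not stand for its list: of 8 smooth muscle markers, 4 were called, all towards the ductus, and all 8 differences were positive (median 0.86). The endothelial receptor Tek was at 11.04 ± 0.085 and 11.75 ± 0.183, and was called lower in the ductus (adjusted p = 0.00906). Of 8 endothelial markers, 3 were called, all towards the aorta, and all 8 differences were negative (median -0.67). The mean of this list ran from 7.41 to 7.57 on ductus arrays and from 7.94 to 8.40 on aorta arrays, so the tissues did not overlap, and the part of endothelial cells in the differences of the 10 genes was not tested. Array medians lay between 4.36 and 4.42. Markers of thymocytes and adipocytes varied widely from pool to pool, with list means of 3.57 to 7.67 and 4.20 to 7.49 over the 8 arrays.

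**Figure D1:**
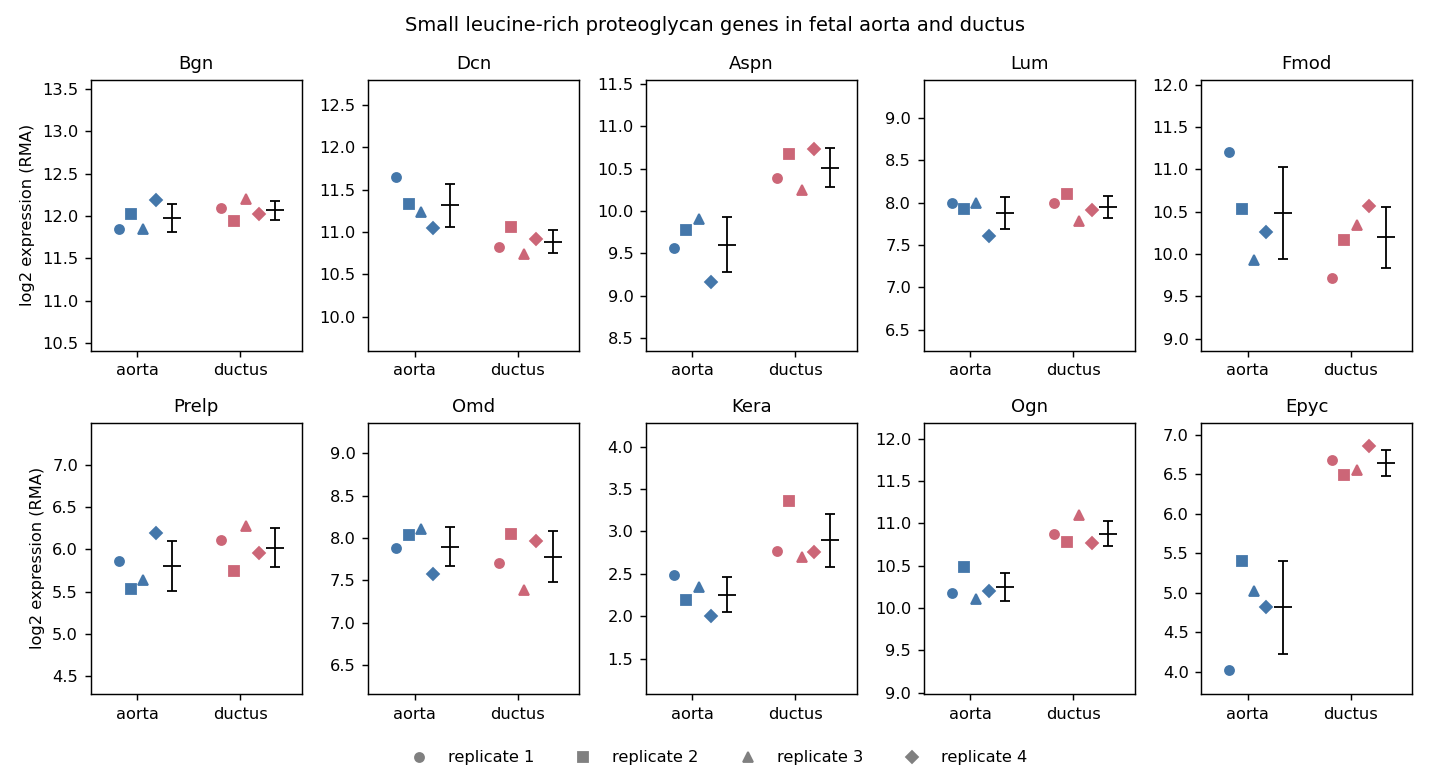
Log2 expression of the 10 genes on each array, with aorta in blue, ductus in red and a symbol for each replicate number. The black bar is the mean and SD of 4 arrays, each panel has its own y range, and levels are not comparable between panels. Epyc, Aspn, Ogn and Kera show no overlap between the tissues, as was so for 11.3% of all genes.

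Biglycan, decorin and asporin belong to the first class of the family. Bgn encodes a proteoglycan that binds collagen and TGF-beta and whose loss weakens the aortic wall. Its main probe set read 11.85, 12.02, 11.85 and 12.19 on the aorta arrays (log2, replicates 1 to 4) and 12.09, 11.95, 12.21 and 12.02 on the ductus arrays. The ranges overlap almost fully. The difference was 0.09 ± 0.116 (log2, ductus minus aorta, ± SE; 95% interval -0.17 to 0.35; adjusted p = 0.774). The other 2 Bgn probe sets differed by -0.04 and 0.01, neither called.

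Dcn encodes decorin, which binds collagen fibrils and sequesters TGF-beta. It read 11.66, 11.33, 11.23 and 11.05 in the aorta and 10.83, 11.06, 10.74 and 10.92 in the ductus. The tissues touch at a single point, where the lowest aorta array and the highest ductus array are nearly equal. The difference was -0.43 ± 0.143 (95% interval -0.75 to -0.11), with an unadjusted p of 0.0142 and an adjusted p of 0.162 in limma, so Dcn was not called. A second Dcn probe set, which is based on an expressed sequence tag, differed by -0.18 ± 0.200 (adjusted p = 0.773 over probe sets). On that probe set 3 aorta arrays read between 10.02 and 10.05, and the ductus arrays spread from 9.27 to 10.13.

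Aspn encodes asporin, a collagen and TGF-beta binding protein of periosteum, tendon sheath and cartilage. It read 9.57, 9.77, 9.91 and 9.16 in the aorta and 10.39, 10.67, 10.24 and 10.72 in the ductus. Every ductus array lay above every aorta array. The means were 10.51 ± 0.230 and 9.60 ± 0.326 (SD, n = 4 each), a difference of 0.91 ± 0.181 (SE; 1.87-fold; limma adjusted p = 0.0239). The second Aspn probe set was higher in the ductus by 0.77 ± 0.153 (adjusted p = 0.0317 over probe sets) and did not overlap either. The call of the gene was lost on leaving out aorta replicate 1 (adjusted p = 0.0598) or ductus replicate 1 (0.0549), 2 (0.0693) or 4 (0.0764), with differences between 0.83 and 0.95.

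Lumican, fibromodulin, PRELP, osteomodulin and keratocan form the second class. Lum encodes lumican, which spaces collagen fibrils in cornea and skin. It read 8.0, 7.93, 7.99 and 7.60 in the aorta and 7.99, 8.10, 7.79 and 7.91 in the ductus. The tissues overlap, with a difference of 0.07 ± 0.125 (95% interval -0.21 to 0.35; adjusted p = 0.851). The sign turned to -0.03 without aorta replicate 4, its lowest aorta array.

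Fmod encodes fibromodulin, which shares a collagen binding site with lumican and directs the cross-linking of fibrils. Its SD over the aorta arrays, 0.54, was exceeded among the 10 genes by that of Epyc, 0.58. Its main probe set read 11.21, 10.53, 9.93 and 10.27 in the aorta and 9.71, 10.16, 10.35 and 10.57 in the ductus. The ductus values lie inside the aorta range except for replicate 1. The difference was -0.29 ± 0.273 (95% interval -0.90 to 0.33; adjusted p = 0.684). All 6 Fmod probe sets differed downwards, by -0.42 to -0.23, and 0 of the 6 were called. Without aorta replicate 1, 3 of them turned to slightly positive differences of at most 0.05.

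Fmod differed from array to array in the same way on all its probe sets, which read the same RNA. As each pool had a single array, differences between litters and between arrays cannot be told apart. Within the aorta, all 6 were highest on replicate 1 and lowest on replicate 3. Within the ductus, all 6 were highest on replicate 4 and lowest on replicate 1. Mesothelium is the cell layer that lines the pleura and pericardium around these vessels. The mean of its 10 markers was also highest on aorta replicate 1 (9.09) and lowest on aorta replicate 3 (7.70). In the ductus the extremes lay on the opposite arrays to those of Fmod, with the marker mean highest on replicate 1 (7.10) and lowest on replicate 4 (6.49). Of these markers 7 of 10 were called higher in the aorta, among them Upk3b, a uroplakin (10.04 ± 0.479 against 7.87 ± 0.749; 4.50-fold; adjusted p = 0.0103). The order in the aorta was not particular to mesothelium. The mean of the endothelial markers had the same aorta extremes, 8.40 on replicate 1 and 7.94 on replicate 3. The adipocyte mean had them reversed, 4.20 on replicate 1 and 7.49 on replicate 3. The part of mesothelial or other cells in the Fmod values was not tested. Of the 6 probe sets, 5 carry the suffix _x_at, which marks probes that may match other sequences too, and 1 (1415939_at) does not. That probe set read 7.59, 7.12, 6.18 and 7.10 in the aorta and 6.22, 6.44, 6.71 and 6.95 in the ductus.

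**Figure D2:**
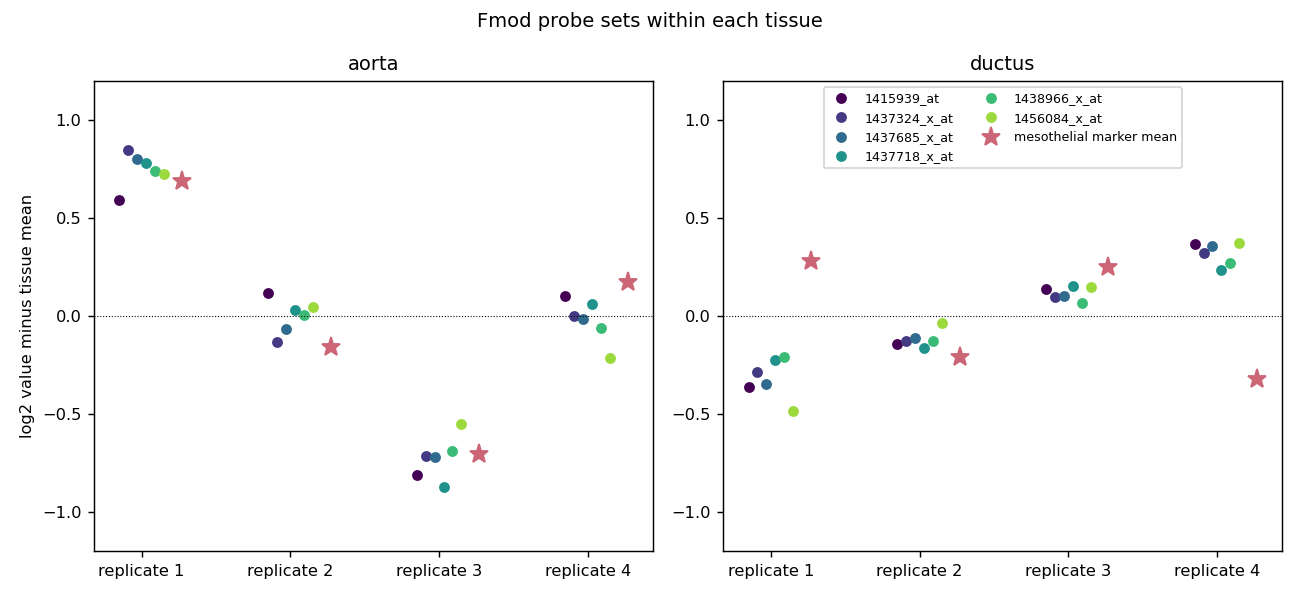
Log2 values of the 6 Fmod probe sets on each array minus the mean of the same tissue, aorta on the left and ductus on the right, with the mean of 10 mesothelial markers as red stars. In the aorta the probe sets and the stars are both highest on replicate 1 and lowest on replicate 3, and in the ductus their extremes are on opposite arrays.

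Prelp, which encodes a basic, heparin-binding member that links matrix to basement membranes, read 5.86, 5.53, 5.64 and 6.19 in the aorta and 6.11, 5.74, 6.27 and 5.96 in the ductus. The ranges overlap, and the difference was 0.21 ± 0.171 (95% interval -0.17 to 0.60; adjusted p = 0.612). The second Prelp probe set differed by 0.10 ± 0.210. Neither was called.

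Omd encodes osteomodulin, a keratan sulfate proteoglycan of bone. It read 7.89, 8.03, 8.11 and 7.57 in the aorta and 7.71, 8.05, 7.38 and 7.96 in the ductus. The tissues overlap, with a difference of -0.12 ± 0.175 (95% interval -0.51 to 0.27; adjusted p = 0.804). Without ductus replicate 3, its lowest array, the difference was 0.01.

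Kera encodes keratocan, known from the cornea. It read 2.48, 2.19, 2.34 and 2.00 in the aorta and 2.77, 3.36, 2.70 and 2.75 in the ductus. All aorta values lie below the first quartiles of the arrays, which ran from 2.74 to 2.86, and 1 ductus array (replicate 2) lies above all of these. The values are thus not shown to be above background in the aorta, and no fold is given. The tissues did not overlap, as was so for 11.3% of all genes, and Kera was not called (adjusted p = 0.0801). It passed with a mean-variance trend and robust prior in limma (adjusted p = 0.0392).

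Ogn and Epyc belong to the third class. Ogn encodes osteoglycin, also called mimecan, which is found in bone, cornea and the artery wall and takes part in collagen fibril assembly. It read 10.18, 10.49, 10.11 and 10.20 in the aorta and 10.87, 10.78, 11.10 and 10.77 in the ductus. The lowest ductus array lay above the highest aorta array. The means were 10.88 ± 0.151 and 10.25 ± 0.166 (SD, n = 4 each), a difference of 0.63 ± 0.124 (SE; 1.55-fold; limma adjusted p = 0.0220).

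The second Ogn probe set, 1419662_at, gave a larger difference. It read 7.65, 8.07, 7.63 and 7.75 in the aorta and 8.83, 8.81, 8.91 and 8.97 in the ductus. The gap between the tissues was wider than the range within either. The difference was 1.10 ± 0.125 (2.15-fold; adjusted p = 0.00147 over probe sets), and its call held under all 15 alternatives run on probe sets, with an adjusted p of up to 0.0230. By contrast, the call of the gene, which rests on the brighter probe set, was lost without aorta replicate 1 (adjusted p = 0.0570), 3 (0.0539) or 4 (0.0555) and without ductus replicate 1 (0.0615) or 3 (0.0572). Both probe sets name the same source sequence, and whether their differences differ was not tested.

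Epyc encodes epiphycan, a dermatan sulfate proteoglycan known from growth plate cartilage and the inner ear. It read 4.02, 5.40, 5.02 and 4.81 in the aorta and 6.68, 6.48, 6.55 and 6.85 in the ductus. The ductus arrays lay close together and more than a log2 unit above the highest aorta array. The means were 6.64 ± 0.162 and 4.81 ± 0.584 (SD, n = 4 each), a difference of 1.83 ± 0.256 (SE; 3.54-fold; 95% interval 1.25 to 2.40; limma adjusted p = 0.00390). Aorta replicate 1, at 4.02, lay below the median of its array, 4.36, and the array medians ran from 4.36 to 4.42. Without detection calls the aorta level is not shown to be above background, which limits the fold. Epyc has 1 probe set. Its call held under all 16 alternatives run, with differences from 1.56 to 2.02 and an adjusted p of up to 0.0231. A filter for a mean above log2 6 is not among these, as it left Epyc out, and 2 members were called under it.

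**Figure D3:**
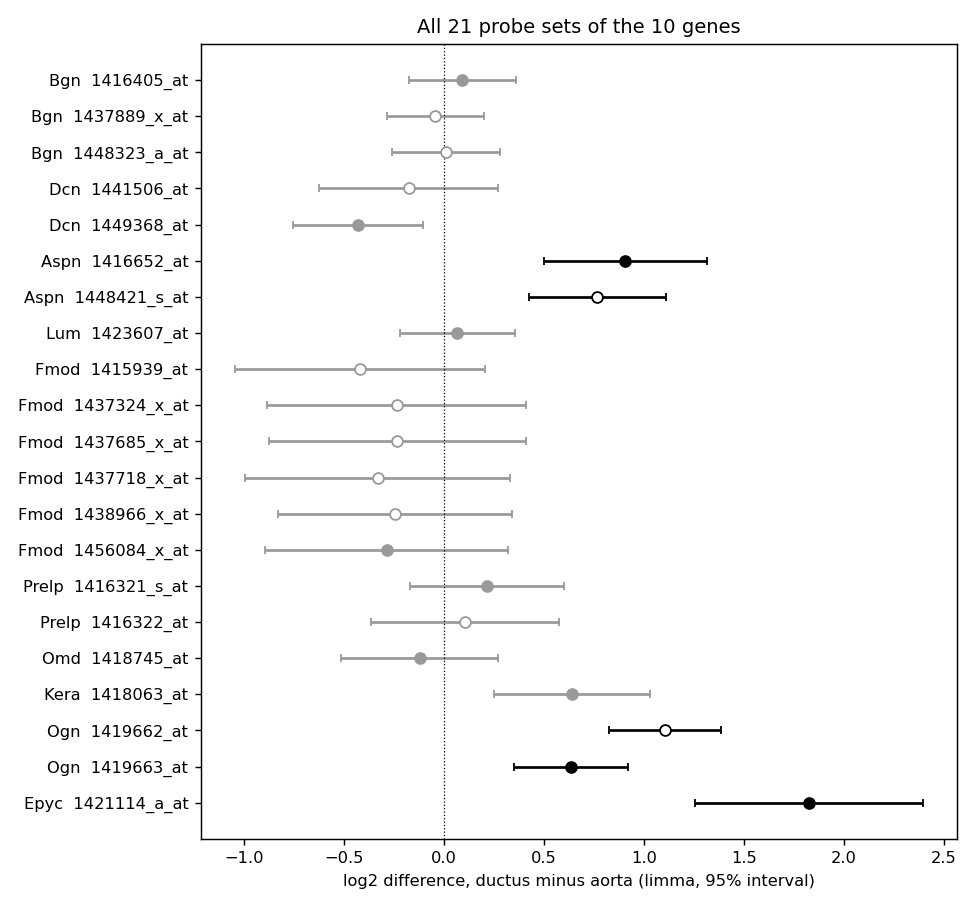
Log2 difference, ductus minus aorta, with its 95% interval for each of the 21 probe sets in the limma fit over 45037 probe sets. Filled points represent the gene in the fit over genes, and black marks an adjusted p under 0.05. The 5 black points belong to Aspn (2), Ogn (2) and Epyc (1), all to the right of 0.

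Over probe sets, 5 of 21 were called towards the ductus and 0 towards the aorta, beside 1.26% and 1.20% of all probe sets. Fewer were called on leaving out any 1 array, namely 2 without aorta replicate 1 or 4 or ductus replicate 1, 2 or 4, 3 without aorta replicate 3 or ductus replicate 3, and 4 without aorta replicate 2. Of the 21, 6 did not overlap between tissues, namely the 5 called ones and the Kera probe set, beside 9.25% of all. For each of the 6 genes with several probe sets except Bgn, all probe sets had the same sign.

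Whether members of the family differed from one another in their tissue difference was tested on 6 pairs, as the log2 difference between both genes on each array (exact permutation test over 8 arrays, two-sided, smallest possible p 0.0286). Ogn moved apart from its neighbour Omd by 0.76 (exact p = 0.0286, and 0.0857 adjusted over the pairs). Dcn moved apart from its neighbour Lum by -0.50 (exact p = 0.0286, adjusted 0.0857). For Dcn against Bgn the difference was -0.52 (exact p = 0.0857, adjusted 0.171). Fmod against Prelp (-0.50), Fmod against Lum (-0.35) and Ogn against Aspn (-0.27) had exact p-values of 0.257 to 0.371. With adjustment 0 of 6 pairs passed, which at this smallest p would have needed most of the pairs to reach it. Both Ogn against Omd and Dcn against Lum were at the smallest p, and pairs with Epyc were not tested.

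Markers of tendon and of cartilage, tissues in which members of the family are known, were read beside Epyc. Of 5 tendon and perichondrium markers, 4 passed towards the ductus and 0 towards the aorta, and their mean level ran from 5.43 to 5.82 on ductus arrays and from 3.99 to 4.17 on aorta arrays. Tnmd, the tendon membrane protein tenomodulin, read 3.82, 5.05, 5.66 and 4.82 in the aorta and 7.28, 7.08, 7.36 and 7.64 in the ductus (5.67-fold; adjusted p = 0.00272). Its lowest aorta array was replicate 1, as for Epyc, and its highest ductus array replicate 4, as for Epyc. The mean of the 5 markers was also lowest on aorta replicate 1, but its highest ductus array was replicate 3. Mkx, the homeobox factor mohawk of tendon, exceeded its aorta level 8.29-fold (7.42 ± 0.192 in ductus pools, 4.37 ± 0.487 in aorta pools; adjusted p = 0.000105), and here aorta replicate 1 was the highest aorta array.

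Of 12 cartilage markers, 0 passed towards the ductus, 2 passed towards the aorta and 10 were not called. The median difference over the 12 was -0.19, with 4 positive, among them Col2a1, the main collagen of cartilage, at 0.28 (adjusted p = 0.316), which was picked out after its values were seen. Acan, the large aggregating proteoglycan aggrecan, stood 3.23-fold higher in aorta pools (11.18 ± 0.157, with 9.48 ± 0.549 in ductus pools; adjusted p = 0.00447), and Hapln1, the link protein that holds aggrecan to hyaluronan, 2.04-fold (adjusted p = 0.00167), with a log2 difference of -1.03 that was -0.47 with the mean over its probe sets. The mean level of the list ran from 4.05 to 4.25 on ductus arrays and from 4.43 to 4.53 on aorta arrays. For 2 of the 12 markers both tissue means lay below the lowest first quartile of the arrays. Further markers lay near the first quartiles, which ran from 2.74 to 2.86. Among these were Col2a1 (3.03 in ductus pools, 2.75 in aorta pools), Col11a2 (2.78 and 2.70), Snorc (2.80 and 2.90) and Col9a2 (3.10 and 3.04). The part of tendon-like or cartilage-like cells in the Epyc difference was not tested.

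**Figure D4:**
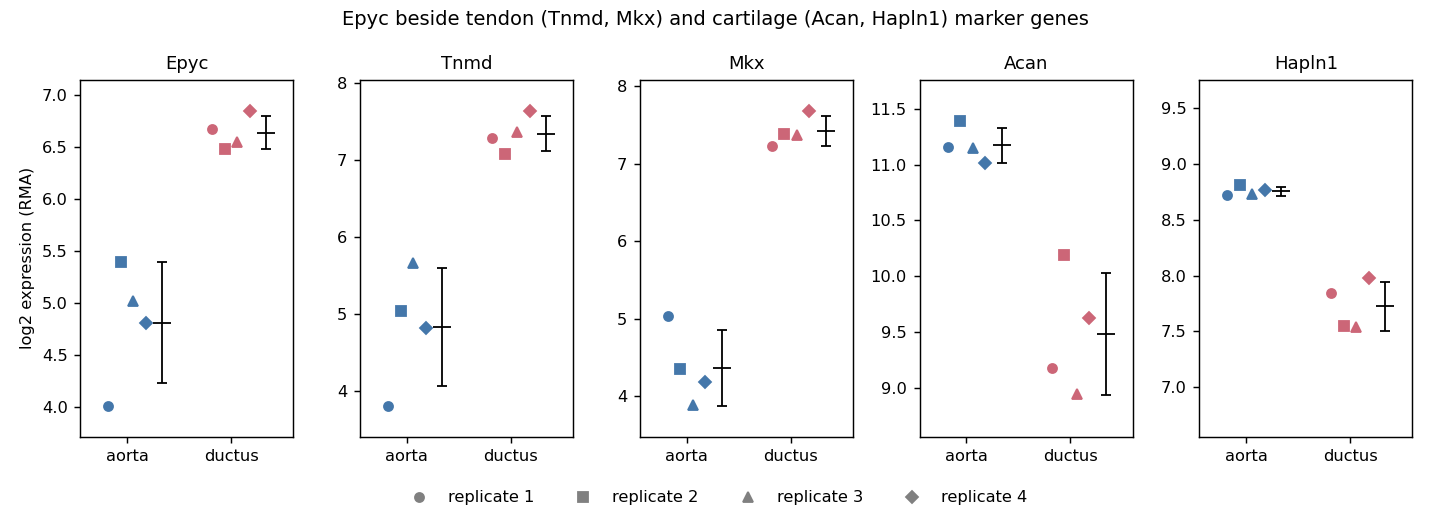
Log2 expression of Epyc beside the tendon genes Tnmd and Mkx and the cartilage genes Acan and Hapln1 on each array, with aorta in blue, ductus in red, a symbol for each replicate number and black bars for the mean and SD of 4 arrays. Epyc, Tnmd and Mkx are higher in the ductus and Acan and Hapln1 lower, each without overlap between tissues.

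Adventitial fibroblasts are a main source of decorin and lumican in arteries. Of 11 measured markers of these cells, 1 was called higher in each tissue. Their mean level ran from 9.51 to 9.65 on ductus arrays and from 9.60 to 9.88 on aorta arrays, so the ranges overlap. This depended on the summary used. The log2 of the summed unlogged values ran from 13.49 to 13.57 on ductus arrays and from 13.61 to 13.87 on aorta arrays, without overlap. The smooth muscle marker mean ran from 9.50 to 10.13 on ductus arrays and from 8.33 to 8.99 on aorta arrays, with 4 of 8 markers called, all higher in the ductus. The part of these cells in the differences of Dcn, Aspn and Ogn was not tested. Skeletal muscle markers were highest on ductus replicate 3 (mean 6.62, against 4.03 to 4.30 on the other ductus arrays), and without that array Epyc and Aspn were called and Ogn was not.

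By the profile over the 8 arrays, after each gene's own mean was subtracted, the genes most like Epyc were Syt1, a synaptic calcium sensor (root mean square log2 difference 0.309), Tnfrsf11b, which encodes osteoprotegerin (0.336), and Dysf, the membrane repair protein dysferlin (0.341). Those most like Ogn were Fn1, fibronectin (0.0986), Anapc7, a subunit of the anaphase-promoting complex (0.108), and Tacc1 (0.110). Those most like Aspn were Dzip1, a protein of primary cilia (0.156), Map1b, a microtubule-associated protein (0.164), and Rem2, a small GTPase (0.170). Fn1 exceeded its aorta level 1.44-fold (adjusted p = 0.0193, and up to 0.0610 without ductus replicate 1 or 3; log2 difference 0.52, and 0.90 to 1.28 with the other choices of probe set) and Tnfrsf11b 3.80-fold (adjusted p = 0.00167). These genes were ranked by likeness among all named genes, and the ranking is a description.

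Of 8 related leucine-rich proteoglycan genes 6 were measured, of which 1 was called, Chad, encoding the collagen-binding chondroadherin. Its level was 3.93 ± 0.231 in ductus pools and 3.28 ± 0.173 in aorta pools (1.57-fold; adjusted p = 0.0361), not far above the first quartiles, and the call failed without aorta replicate 1, 2 or 4 or ductus replicate 1, 3 or 4 (adjusted p up to 0.107). Ecm2, which precedes Aspn on chromosome 13 and was chosen after its values were seen, averaged 2.68 in ductus pools and 2.92 in aorta pools (adjusted p = 0.487).

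Among 25 larger and other proteoglycans, 0 genes passed towards the ductus and 2 towards the aorta, with a median difference of -0.02. They were Acan and Spock2, a testican (2.04-fold higher on aorta arrays; adjusted p = 0.0392, and up to 0.116 without aorta replicate 1, 2 or 4 or ductus replicate 1, 2 or 4), with a log2 difference of -1.03 that was -0.58 with the mean over its probe sets.

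Glycosaminoglycan synthesis genes were called towards the aorta or not at all. Of 24 measured genes for chondroitin and dermatan sulfate, the chains of biglycan, decorin and epiphycan, 0 passed towards the ductus and 2 towards the aorta. The median was -0.14, and 10 of the 24 had a positive difference. The largest of these, picked out after the values were seen, was that of Chst11 at 0.83 (limma adjusted p = 0.0634), not called. Csgalnact1, which starts the chondroitin chain, read 8.71, 8.93, 8.95 and 8.65 in the aorta and 7.99, 7.87, 7.58 and 7.93 in the ductus. The tissues were well apart (1.96-fold higher on aorta arrays; adjusted p = 0.00266), and this call held under all 17 alternatives run. Chpf, the chondroitin polymerizing factor, differed 1.50-fold the same way (adjusted p = 0.0426), a call that 9 of 16 alternatives lost, among them leaving out aorta replicate 2, 3 or 4 or ductus replicate 1, 2 or 4 (adjusted p up to 0.123). Of 11 keratan sulfate genes, limma called 0, with 5 at an unadjusted p under 0.05, and 1 of the 11 had a positive difference (median -0.33). That gene was B3gnt2 (0.50 ± 0.134, limma adjusted p = 0.0776), at 9.14 in ductus pools and 8.64 in aorta pools. Its unadjusted p, 0.00405, was the smallest of the 11. The largest differences among the 11 were those of the sulfotransferase Chst4 (-0.96 ± 0.322; adjusted p = 0.168) and the glycosyltransferase B3gnt7 (-0.68 ± 0.236; adjusted p = 0.180). Without aorta replicate 1, the highest array of both Chst4 and B3gnt7, they were -0.62 and -0.43. The ductus means of Chst4 and B3gnt7, 3.05 and 3.08, lay not far above the first quartiles of the arrays.

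The collagens that these proteins bind showed 1 call among 20 fibrillar and fibril-associated genes, with a median of 0.07. Col12a1, a fibril-associated collagen of tendon and other dense tissues, rose 2.65-fold in ductus pools (8.52 ± 0.210, with 7.11 ± 0.390 in aorta pools; adjusted p = 0.00375), and its log2 difference was 0.49 with the mean over its probe sets. Among 19 measured collagen processing enzymes, 2 passed towards the ductus and 0 towards the aorta (median 0.004). These were the lysyl oxidase Loxl4, 3.84-fold (adjusted p = 0.000573; log2 difference 1.94, and 1.19 with the mean over its probe sets), and the procollagen N-proteinase Adamts3, 2.29-fold (6.96 ± 0.243 against 5.76 ± 0.405; adjusted p = 0.0118), whose call was lost with the mean over its probe sets (0.0634).

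Proteases that can cut matrix proteoglycans, of this family or others, had 5 calls among 13 genes. Of these, 4 were towards the ductus and 1 towards the aorta, and the median over the list was 0.15. Cleavage was not tested. Adamts9 was 1.82-fold (11.48 ± 0.040 against 10.61 ± 0.143; adjusted p = 0.00167), Adamts1 1.75-fold (adjusted p = 0.00852), the membrane-bound collagenase Mmp14 1.69-fold (adjusted p = 0.0122) and the aggrecanase Adamts4 1.43-fold above their aorta levels (adjusted p = 0.0223). The call of Adamts4 was lost under 9 of 17 alternatives, among them leaving out any array but aorta replicate 4 (adjusted p up to 0.0675), while those of Adamts9 and Adamts1 held under all 17. The log2 difference of Adamts9 was 0.87, and 1.64 on its probe set of largest interquartile range. The aggrecanase Adamts5, picked out after the values were known, went the other way, 1.58-fold higher on aorta arrays (adjusted p = 0.0295), and its call was lost without aorta replicate 1, 2 or 4 or ductus replicate 1, 3 or 4 (adjusted p up to 0.0890) and with the mean over its probe sets (0.233).

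Of 25 measured growth factors and receptors that these proteins bind or act through, 1 passed towards the ductus and 3 towards the aorta, with a median of -0.06. P2rx7, an ATP receptor that biglycan can engage, was 2.03-fold above its aorta level (adjusted p = 0.0385, and up to 0.114 on leaving out any array but ductus replicate 2). Tlr4, also a biglycan receptor, was 1.66-fold higher on aorta arrays (7.13 ± 0.167, with 6.40 ± 0.148 in ductus pools; adjusted p = 0.0107), a call lost with the mean over its probe sets (0.115). The TGF-beta receptor Tgfbr2 was 1.49-fold (adjusted p = 0.0223) and the decorin-bound receptor Met 1.60-fold higher there (adjusted p = 0.0479). The call of Tgfbr2 was lost without aorta replicate 1 or 2 or ductus replicate 2 or 4 (adjusted p up to 0.0733), and that of Met on leaving out any array but aorta replicate 3 (adjusted p up to 0.128) and with the mean over its probe sets (0.124).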

How the data were processed

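Total RNA from 4 ductus and 4 aorta pools was labelled with biotin and hybridised to Affymetrix mouse arrays. The deposited values are log2 expression per probe set. Partek 6.6 and RMA, which corrects background, normalizes and summarises probes, are listed in the submitters' processing notes, without settings. No detection calls were used, so levels near the first quartile may be background. The number of arrays limits the precision.

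Symbols came from the platform annotation and were updated by gene ID. Each of 18193 genes was represented by its probe set of highest mean. Genes, and separately 45037 probe sets, were tested in R 4.3.3 with limma 3.58.1 (lmFit, eBayes, two-sided, no covariate, no filter), adjusted over all of them, and called at an adjusted p under 0.05. Levels of different probe sets were not compared. The script was tested on simulated data. The members and lists were chosen with earlier results of these data known. Named genes were all members, up to 4 called genes per related list with the smallest adjusted p (otherwise the 2 with the largest difference), the 3 most alike genes per called member, and the 2 highest of a marker list, not all printed. Alternatives covered scaling, filters, probe set choice, prior, weights, a replicate block, thresholds and leaving out each array.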

Additional observations from a re-analysis of the deposited data

Results flagged for a closer look

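In 118 sets of 4 arrays, 1 array stood far from the other 3 in 4 cases, and chance gives about 1 in 20. For Kera, ductus replicate 2 was the highest at 3.36, with the next at 2.77. For the second Dcn probe set, aorta replicate 4 was the lowest at 9.68, with the next at 10.02. For B3gnt7, aorta replicate 1 was the highest at 4.52, with the next at 3.61. For Adamts3, aorta replicate 4 was the lowest at 5.16, with the next at 5.91.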

How the results depend on the processing

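The direction of the Epyc, Aspn and Ogn differences held under every alternative run, and the Epyc call too. A filter for a mean above log2 6 left Epyc out. Leaving out 1 array gave 1 to 3 called members of the 10 genes, 2 to 4 of the 21 probe sets, 443 to 705 of all genes, 9 to 16 related-list genes (17 with all arrays) and 0 pairs after adjustment. At an adjusted p under 0.01 the counts were 1 member, 2 probe sets, 304 genes and 6 related-list genes. At an adjusted p under 0.05 and at least 2-fold they were 1, 2, 388 and 6. With the replicate number as a block they were 1, 2, 403 and 8, with adjusted p of 0.111 for Ogn and 0.103 for Aspn. The numbers are not shown to pair samples: deviations of same-numbered arrays correlated at -0.23 to -0.07, and no aorta array correlated best with its own number. Signs turned only for members not called. For Bgn probe set 1448323_a_at the difference was -0.034 with quantile normalization and -0.058 to 0.046 on leaving out 1 array, and for 1437889_x_at -0.089 to 0.0038. Leaving out 1 array also gave -0.47 to 0.047, -0.47 to 0.033 and -0.48 to 0.0011 for Fmod probe sets 1437324_x_at, 1437685_x_at and 1438966_x_at, -0.057 to 0.29 for Prelp probe set 1416322_at, -0.025 to 0.12 for Lum and -0.23 to 0.0092 for Omd. The pair Ogn against Aspn gave 0.032 with the mean over probe sets. The cause was not tested. Levels near the first quartile limit Kera, Chad, Ecm2 and Col2a1, and the ductus values of Chst4 and B3gnt7. The aorta values of Epyc, not far from the array medians, limit its fold.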
